A study of Mus musculus with 2 samples.

Results

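The molecular motors of the gastrocnemius, the large calf muscle, were described from all protein-coding genes whose symbols begin with Kif, Klc or Myo followed by a digit, or with Dync or Dynl. This rule took 84 of the 55536 annotated genes in the tables: 38 kinesin heavy chains, 4 kinesin light chains, 16 cytoplasmic dynein subunits, 25 unconventional myosins and Kif1bp, which the name pattern matched although it encodes a kinesin-binding protein and not a motor. Total RNA was sequenced from 2 male mice of the B6Cast F1 hybrid (strain B6CASTF1/J, from The Jackson Laboratory) aged 25 days, with 1 library per animal made from 300 ng of RNA and the ERCC control RNAs as spike-ins. No treatment or genetic change is named, and the libraries form 1 group, so no condition was compared. The labels number the tissue samples as different males but give both the same donor entry, and the spread between the 2 values may therefore be in part technical. An exact test over 2 animals cannot go below p = 0.5 (two-sided).

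Kinesins are motors that walk along microtubules, in most families toward the plus end, and carry vesicles, organelles and messenger RNAs. Cytoplasmic dynein is the large complex that moves cargo toward the minus end, and its heavy chain holds the motor while intermediate, light intermediate and light chains bind cargo and the dynactin complex. Most unconventional myosins run on actin filaments and, unlike the sarcomeric and non-muscle class II myosins, do not form the thick filaments of contraction. In muscle fibres kinesin-1 is known for spacing the many nuclei, class XVIII myosins for a place in the sarcomere and dynein for movement of nuclei and membranes.

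Sequencing depth was 35098487 expected counts in animal 1 and 37428588 in animal 2, of which the motor genes took 0.386% and 0.423% and the spike-ins 0.543% and 0.573%. Expected counts are read counts that the authors' software shared out among transcripts. Levels are TPM, a unit of relative transcript abundance corrected for transcript length, so levels of different genes can be set side by side. The authors deposited another set of transcript estimates, made by a different method and called the second quantification here. A gene was called detected where both animals reached a TPM of at least 1. All 9 muscle fibre markers passed, and none of 10 neuron markers (summed TPM 1.45 and 1.93), none of 10 markers of proliferating cells (3.91 and 4.28) and none of 6 epithelial markers (0.10 and 0.31). Of 9 Schwann cell markers 4 were detected, and of 11 leukocyte markers 4. In bulk tissue, fewer cells of a type and less RNA per cell cannot be told apart.

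Several motor genes are near-identical copies, and their reference sequences show how far reads from those sequences can tell them apart. All sequences printed here are those of the reference. Alleles that the hybrid animals carry were not compared. The 4 Dynlt1 genes, which encode a Tctex-type dynein light chain, lie at chr17:6306340-6317500 (Dynlt1a, minus strand), chr17:6430112-6436296 (Dynlt1b, plus strand), chr17:6601671-6609774 (Dynlt1c, plus strand) and chr17:6646602-6655900 (Dynlt1f, minus strand) in mm10. In the GENCODE M21 transcripts the 339-base coding sequences of Dynlt1a, Dynlt1c and Dynlt1f were identical. That of Dynlt1b differed from them by 1 base, A21C (Dynlt1b base first, counted from 1 at the A of the start codon). The initial 60 coding bases are shown 5′ to 3′ with that base in capitals.
Dynlt1b-201: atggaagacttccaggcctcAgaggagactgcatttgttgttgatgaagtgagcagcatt
Dynlt1a-201: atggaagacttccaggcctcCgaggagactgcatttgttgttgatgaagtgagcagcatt
Dynll1 and Dynll2 encode the LC8 light chains, dimeric hub proteins of dynein. Their coding sequences, from chromosome 5 (transcript Dynll1-202, chr5:115298505-115300912, minus strand) and chromosome 11 (Dynll2-201, chr11:87979525-87987533, minus strand), are the same length of 267 bases but differ at 50 of them, shown in capitals, for an identity of 81.3%. The longest run they share is 16 bases, so reads from these coding sequences differ, which those of Dynlt1a, Dynlt1c and Dynlt1f do not.
Dynll1-202: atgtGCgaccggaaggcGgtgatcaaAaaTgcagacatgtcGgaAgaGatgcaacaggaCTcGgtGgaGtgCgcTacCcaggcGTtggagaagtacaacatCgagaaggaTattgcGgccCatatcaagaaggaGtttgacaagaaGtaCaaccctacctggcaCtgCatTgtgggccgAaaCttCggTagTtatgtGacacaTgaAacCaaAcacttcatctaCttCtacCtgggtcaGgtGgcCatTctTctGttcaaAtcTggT
Dynll2-201: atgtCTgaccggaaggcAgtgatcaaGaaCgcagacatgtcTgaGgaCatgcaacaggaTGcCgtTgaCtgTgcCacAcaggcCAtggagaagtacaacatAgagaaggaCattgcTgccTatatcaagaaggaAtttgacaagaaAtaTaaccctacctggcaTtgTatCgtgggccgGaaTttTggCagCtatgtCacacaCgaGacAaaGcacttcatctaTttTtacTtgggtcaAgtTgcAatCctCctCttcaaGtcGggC

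A small group of genes supplied a large part of the motor TPM. Of the 84 genes, 39 were detected, or 46.4%, beside 45.1% of the 22015 nuclear protein-coding genes. A further 2 passed in animal 1 alone, 3 in animal 2 alone, and 40 in neither. By mean TPM, 4 genes stood at 100 or more, 17 between 10 and 100, 23 between 1 and 10, 34 below 1 but above 0, and 6 were listed at 0. The median level of the motor genes was 0.99 ± 0.07 TPM (SD, n = 2), beside 0.64 ± 0.03 for all nuclear protein-coding genes. The summed TPM was 1062 in animal 1 and 1160 in animal 2, or 0.273% and 0.286% of the nuclear protein-coding TPM. Kif1c, Myo18b, Myo18a and Kif1b took 52.7% of that sum in animal 1 and 53.5% in animal 2. In the second quantification their mean share was 49.6%.

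**Figure D1:**
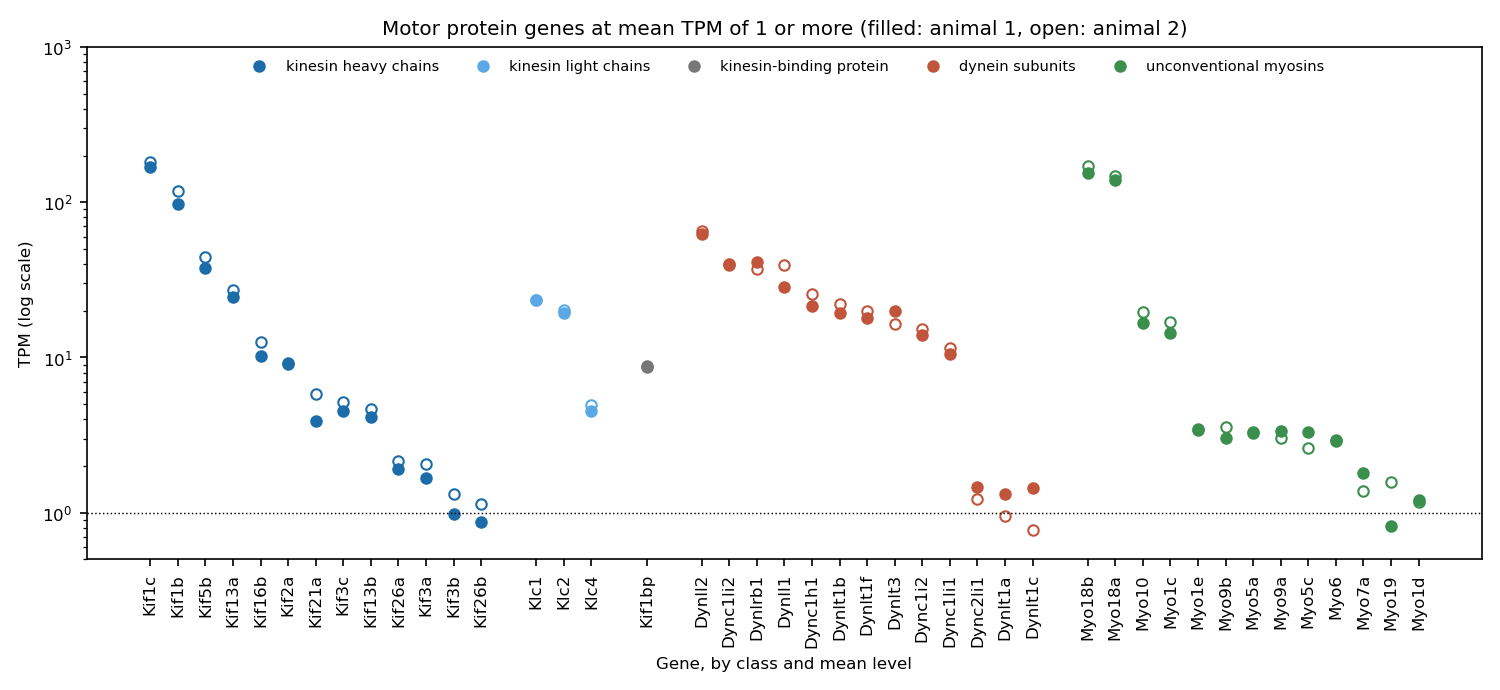
TPM (log scale) of 43 of the 44 motor genes with mean TPM of 1 or more, by class, with filled circles for animal 1, open circles for animal 2 and a dotted line at the detection threshold of 1. Kif1c, Myo18b, Myo18a and Kif1b stand highest, and each class holds both high and low members.

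By class, kinesin heavy chains held 35.7 ± 1.1% of the motor TPM, unconventional myosins 33.2 ± 0.2%, dynein subunits 26.0 ± 0.7%, kinesin light chains 4.33 ± 0.17% and Kif1bp 0.787 ± 0.040%. Detection differed by class. It reached 11 of 16 dynein subunits, 3 of 4 light chains, 13 of 25 myosins and 11 of 38 kinesin heavy chains. The median dynein subunit stood at 15.9 TPM, the median myosin at 1.29 and the median kinesin heavy chain at 0.268. The kinesin sum therefore came from a few genes: Kif1c made up 44.2% of the TPM of the heavy chains and Kif1b 27.3%.

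Kinesin-3, a family of fast, processive transporters of vesicles and organelles, was the most abundant motor family, at 305 TPM summed over its 7 genes in animal 1 and 347 in animal 2. Kif1c, a transporter of dense-core vesicles, integrins and messenger RNAs (chr11:70700548-70731964, plus strand), had 167.59 TPM in animal 1 and 182.75 in animal 2 and ranked 252 among the 22015 nuclear protein-coding genes by mean level. Kif1b, a carrier of mitochondria and synaptic vesicle precursors (chr4:149176319-149307693, minus strand), had 97.72 and 119.02 TPM. Kif13a, which moves recycling endosomes, had 24.61 and 27.41 TPM, and its relative Kif13b 4.13 and 4.66. Kif16b, a motor of early endosomes, stood at 10.24 and 12.53. Kif1a, the relative of Kif1b that carries synaptic vesicle precursors in axons, was below the threshold at 0.45 and 0.59, and Kif28 was at 0.00 and 0.07. The order Kif1c, Kif1b, Kif13a was the same in both animals, and no range of these 3 overlapped that of another.

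Kinesin-1, the founding family, was carried by a single heavy chain gene. Kif5b, the ubiquitous heavy chain, reached 37.90 and 44.54 TPM in animals 1 and 2, and the mainly neuronal Kif5a had 0.17 and 0.07 and Kif5c 0.14 and 0.16. Kif5b thus made up 99.3 ± 0.2% of kinesin-1 heavy chain TPM. The light chains, which link the heavy chain to cargo, were shared between genes. Klc1 had 23.37 and 23.42 TPM, Klc2 19.28 and 20.30, and Klc4 4.52 and 4.97, or 48.8%, 41.2% and 9.88% of the light chain TPM. Klc3, known from male germ cells, had 3 counts in animal 1 and 2 in animal 2 (0.06 and 0.05 TPM). Klc1 was above Klc2 in both animals by a log2 ratio of 0.24 ± 0.05 (SD, n = 2).

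The other transport kinesins were low. In heterotrimeric kinesin-2, the motor of intraflagellar transport, Kif3a is known to pair with Kif3b or Kif3c. Kif3c was the highest at 4.55 and 5.16 TPM, above Kif3a at 1.68 and 2.07 and Kif3b at 0.98 and 1.32. The log2 ratio of Kif3b to Kif3c was -2.08 ± 0.17 (SD, n = 2), and Kif3c held 61.7% of the TPM of the 3 genes. Kifap3, the non-motor subunit of that complex, had 5.60 and 5.53 TPM, and Kif17, the homodimeric kinesin-2, 1 count in animal 1 and 0 in animal 2. Kif2a, a kinesin-13 that takes microtubule ends apart, had 9.19 and 9.09. Kif21a, a kinesin-4 that limits microtubule growth, had 3.89 and 5.82, and its relative Kif21b 0.20 and 0.14. Among the other kinesins Kif26a led with 1.90 and 2.16, and Kif26b stood at the threshold with 0.87 and 1.13.

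None of the 11 mitotic kinesins was detected in the first quantification. Their summed TPM was 3.55 in animal 1 and 2.85 in animal 2 and their median 0.225, and the highest was Kif22, a chromosome-arm motor, at 0.72 and 0.88. The others lay between 0.085 and 0.55 in mean TPM (Kif4 and Kif23). Kif23 had 0.90 and 0.20 TPM, but 1.87 and 1.14 in the second quantification, where it passed the threshold in both animals. Beside the mitotic kinesins, the 10 proliferation markers also stayed under the threshold in the first quantification, with Top2a highest at 0.90 and 0.88. Means in the second were 1.29 for Top2a and 1.30 for Cdk1.

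Cytoplasmic dynein-1 was present with every class of subunit. The heavy chain Dync1h1 (chr12:110601452-110666945, plus strand) reached 21.44 and 25.59 TPM in the 2 animals. Of the intermediate chains, the widely expressed Dync1i2 had 13.95 and 15.24, and the mainly neuronal Dync1i1 had 3 counts in each library, or 0.04 TPM in both. Of the light intermediate chains, Dync1li2 had 40.22 and 39.50 and Dync1li1 10.54 and 11.47. The 9 light chain genes together had 192 and 202 TPM, and Dynll2 was the highest single subunit gene. Dynll2 had 62.45 and 65.31 TPM, Dynlrb1, the roadblock chain, 41.49 and 37.00, and Dynll1 28.49 and 39.29. Dynlrb2, the second roadblock gene, had 1 count in each library. Dynlt3 had 19.91 and 16.48, below the 40.07 and 43.82 of the 4 Dynlt1 genes summed, which is the safer quantity given their shared sequence. Within that sum, Dynlt1b (19.39 and 22.16) and Dynlt1f (17.92 and 19.94) were assigned nearly all, and Dynlt1a (1.32 and 0.95) and Dynlt1c (1.44 and 0.77) little.

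The heavy chain of dynein-2, the retrograde motor of cilia, was lower. Dync2h1 had 0.87 TPM in animal 1 and 0.65 in animal 2, against the 21.44 and 25.59 of Dync1h1, a log2 ratio of 4.94 ± 0.47 (SD, n = 2) in favour of Dync1h1. Its light intermediate chain Dync2li1 had 1.47 and 1.23. All 3 other dynein-2 genes measured, Wdr60, Wdr34 and Tctex1d2, were detected, at mean levels of 1.29 to 3.19 TPM. Of 14 axonemal dynein genes, which drive the beating of motile cilia, only Dnal1 was detected (2.35 and 2.80), and 5 were listed at 0.

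The class XVIII genes led the unconventional myosins. Myo18b, which is needed for sarcomere assembly, reached 155.03 and 170.76 TPM (chr5:112688876-112896362, minus strand), and Myo18a, a myosin known for tethering membranes to actin, 139.19 and 147.53 (chr11:77763246-77865980, plus strand). They took 44.1% and 38.9% of unconventional myosin TPM. In expected counts, Myo18b had 32491 and 36558 and Myo18a 12267 and 14011. Of Myo18a TPM, means of 32.8% and 27.1% were assigned to Myo18a-217 and Myo18a-215, incomplete transcripts of 1076 and 2014 bases. The TPM of Myo18a thus rests in part on short annotated transcripts. Myo18b was higher in both animals in this quantification, by a log2 ratio of 0.18 ± 0.04, but the second quantification gave -0.02 and no order is read from it. Myo10, a motor of filopodia that also takes part in myoblast fusion, had 16.57 and 19.76, and Myo1c, a class I myosin known for delivery of the glucose transporter GLUT4, 14.43 and 16.82. Several further myosins lay near each other within a narrow range: Myo1e (3.43 and 3.47), Myo9b (3.03 and 3.55), Myo5a (3.30 and 3.24), Myo9a (3.35 and 3.04), Myo5c (3.32 and 2.61) and Myo6 (2.91 and 2.92). From Myo9b to Myo6, neighbours in this order did not differ beyond the spread between the animals. Myo5a carries organelles along actin and acts at the neuromuscular junction, and Myo6 is the motor that moves toward the minus end.

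Lower in the same class, Myo7a, known from hair cells and retina, had 1.81 and 1.38 TPM, Myo1d 1.20 and 1.18, and Myo19, a mitochondrial motor, 0.82 and 1.57. Myo5b had 0.60 and 0.72. The leukocyte myosins Myo1f (0.22 and 0.39) and Myo1g (0.27 and 0.22) were below the threshold beside leukocyte markers that summed to 20.80 and 18.86 TPM, of which the highest was C1qb at 5.85 and 5.23. Over the whole set, 5 genes had no count in either library: Myo3a, Myo3b and Myo7b, known from sensory and brush border cells, and Kif12 and Kif2b. A count of 0 allows up to 3 counts, which for Kif12 is 0.0581 TPM in animal 1 and 0.0548 in animal 2, counting error only. In all, 15 motor genes had 3 counts or fewer in each library, and their levels cannot be ordered at this depth.

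Genes near the threshold had like values. Just above a mean TPM of 1 were Kif26b (1.00), Dynlt1c (1.11) and Dynlt1a (1.14), and just below were Kif22 (0.80), Dync2h1 (0.76) and Myo5b (0.66). None of these 6 reached a TPM of 1 in both animals, so none counted as detected.

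Related genes were compared within each animal in 25 pairs, as log2 ratios of TPM with 0.01 added to each level. The same member was higher in both animals in 23 pairs and also in the second quantification in 22. The mean ratio was at least 1 on the log2 scale, in either direction, in 18. Kif1b exceeded Kif1a by 7.68 ± 0.07 (SD, n = 2), Kif5b exceeded Kif5c by 8.01 ± 0.04 and Kif13a exceeded Kif13b by 2.56 ± 0.01. With 0.1 or 1 added in place of 0.01, Kif1b exceeded Kif1a by 7.45 or 6.16. Kif5b then exceeded Kif5c by 7.37 or 5.19. Kif1a and Kif5c were under the detection threshold, and the sizes of their ratios depended on the amount added. Dync1li2 exceeded Dync1li1 by 1.86 ± 0.10, against 0.91 in the second quantification. Kif1c exceeded Kif1b by 0.70 ± 0.11. Dynll1 was below Dynll2, with a log2 ratio of -0.93 ± 0.28 against -0.35 in the second quantification, Myo1d below Myo1e (-1.53 ± 0.03) and Myo6 below Myo10 (-2.63 ± 0.18). The order of Myo5a and Myo5c, and that of Myo9a and Myo9b, differed between the animals. Pairs in which a gene had fewer than 20 counts over both libraries (Dync1i2 and Dync1i1, Dynlrb1 and Dynlrb2, Kif2a and Kif2c, Myo7a and Myo7b) are given by their levels only.

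**Figure D2:**
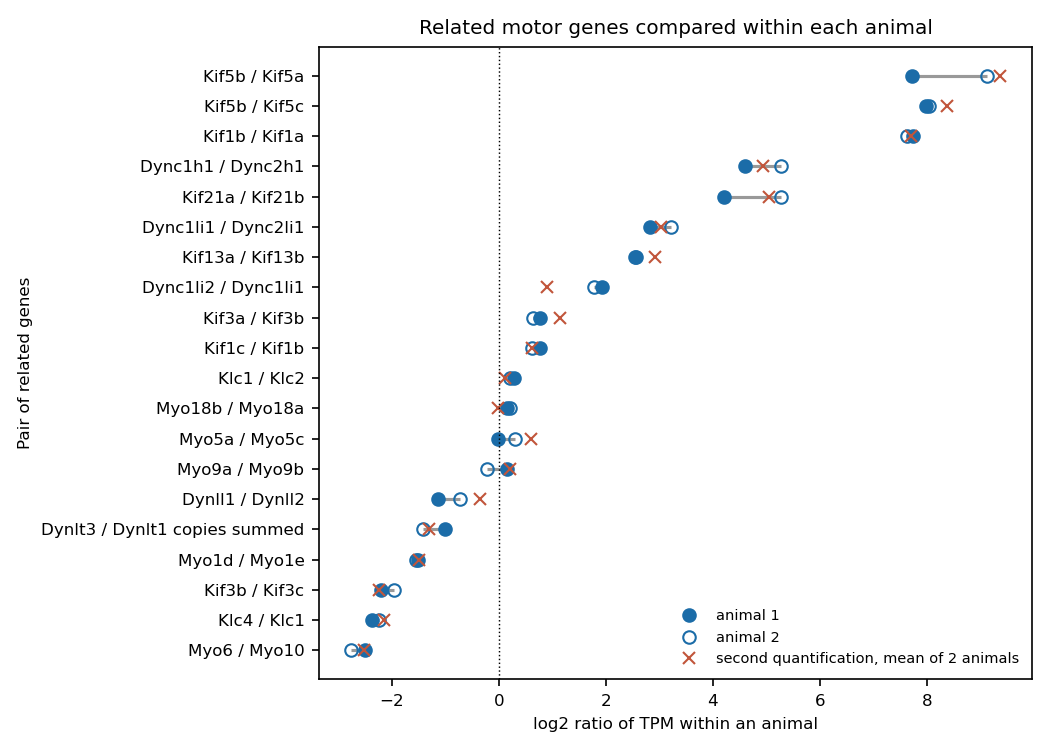
log2 ratio of TPM between related motor genes (x axis) for 20 pairs with at least 20 counts for each gene over both libraries, with filled circles for animal 1, open circles for animal 2 and crosses for the mean of both animals in the second quantification. Kif5b, Kif1b and Dync1h1 stand far above their relatives, whereas Klc1 and Klc2, and Myo18b and Myo18a, lie near 0.

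Transcript shares showed which forms of the abundant motors were read. Of the 21 motor genes with mean TPM of 10 or more, the same transcript led in both animals in 20, and in both animals and both quantifications in 14. For Kif1b, a gene known to give a shorter and a longer motor with different tails, Kif1b-201 with 1150 codons took 74.85% in animal 1 and 77.72% in animal 2. Kif1b-203 with 1816 codons took 18.92% and 16.63%. The second quantification gave 74.3% and 17.6% as means, so the shorter form led in all 4 values. Kif1c-202 took 75.0 ± 0.3% (SD, n = 2) of Kif1c and Dync1h1-201 91.8 ± 5.5% of Dync1h1. Myo18b-201, which encodes 2605 codons, took 80.6 ± 2.8%, against 97.0% in the second quantification, where the processed transcript Myo18b-202 was at 0. Kif5b-201 took 87.4 ± 0.8% against 50.3% there.

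For 7 genes the animals or the quantifications named different leading transcripts. In Dync1li2, 46.5 ± 1.6% was assigned to Dync1li2-208, a processed transcript of 144 bases, which the second quantification left at 0 while it gave 84.1% to Dync1li2-201. Dynlrb1-202 took 97.1 ± 3.4% of Dynlrb1, against 45.2% there, where Dynlrb1-204 led. In Dynll1, the processed transcript Dynll1-203 took 55.2 ± 0.8%, so that the protein-coding transcripts made up 35.5% of the TPM of this gene, or 53.9% in the second quantification. Klc2, Kif13a, Myo1c and Dync1i2 were the others. Part of the TPM of Dync1li2 and Dynll1 was therefore assigned to transcripts annotated as non-coding. Motors of lower level were affected too. Protein-coding transcripts made up 51.1% of the TPM of Myo5a, 34.4% of Myo5c and 58.8% of Myo6. They made up 54.75% of Myo7a and 42.45% of Myo19. The second quantification gave a larger protein-coding share for each of these myosins except Myo5a. Their levels thus rest in part on transcripts annotated as other than protein-coding.

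**Figure D3:**
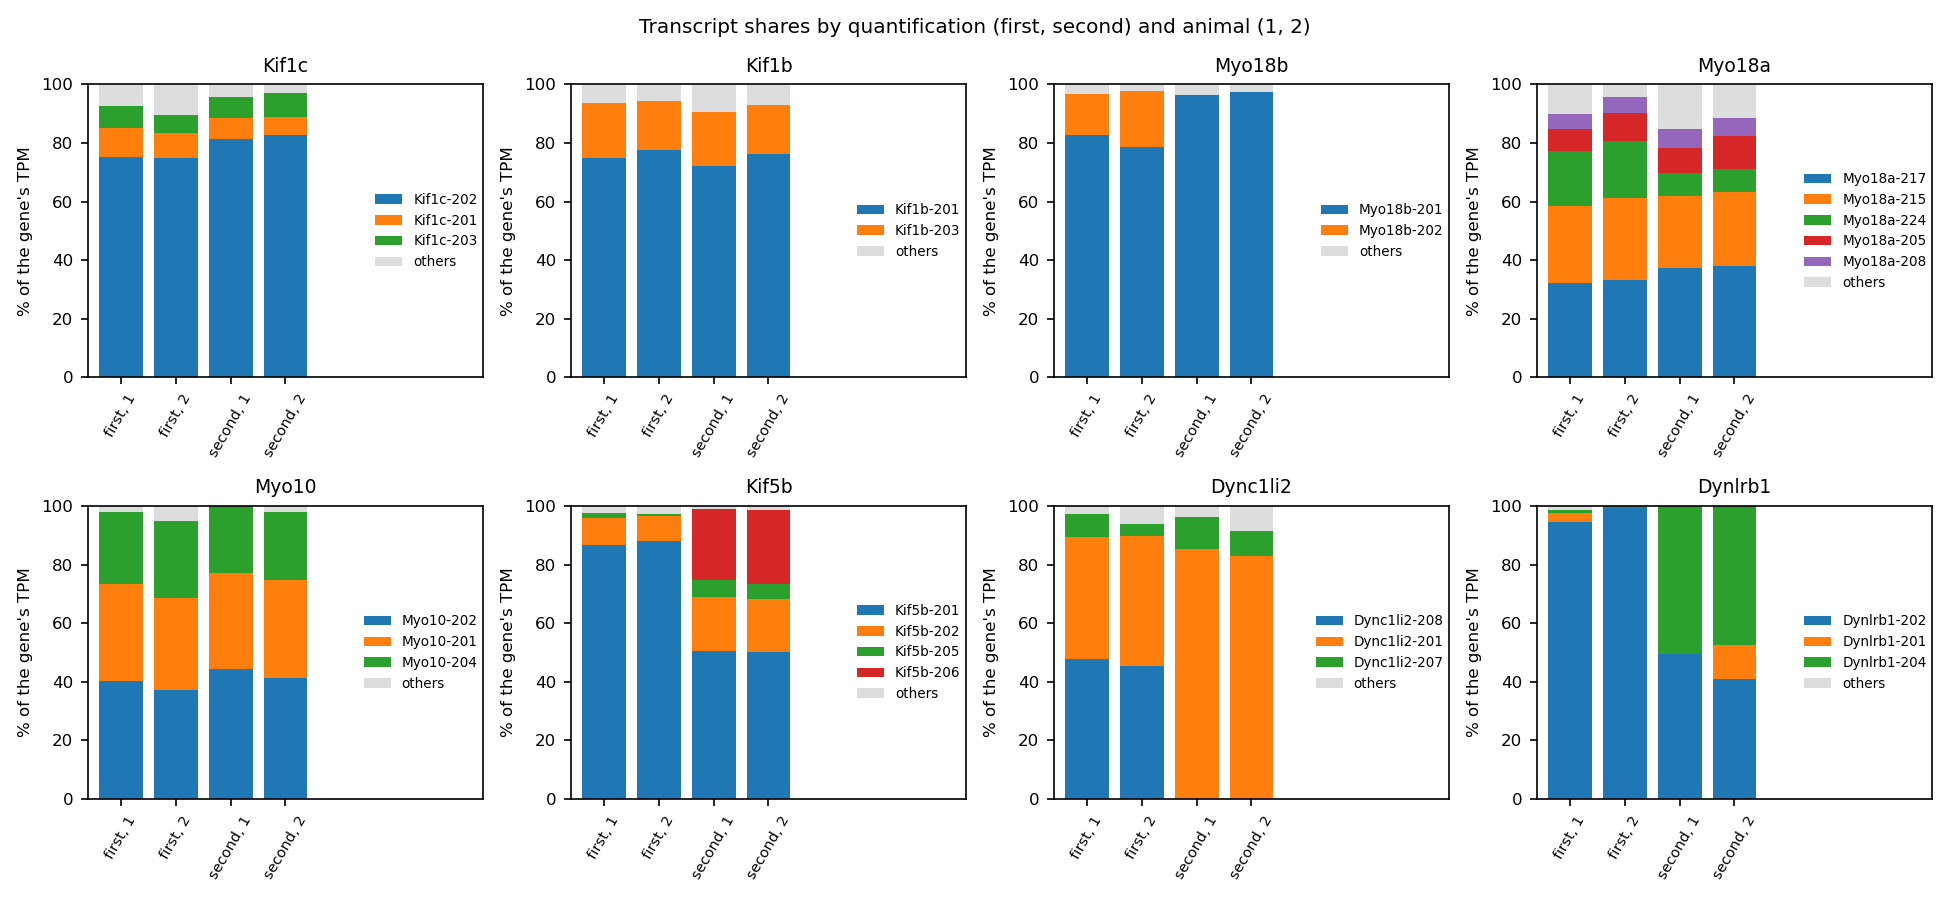
Share of the TPM of each gene (y axis, percent) taken by its transcripts, as stacked bars for 8 motor genes, by quantification (first, second) and animal (1, 2). Grey holds transcripts under 5% in both quantifications. Kif1b, Kif1c and Myo10 look alike in all 4 bars, whereas Dync1li2, Dynlrb1 and Kif5b change between quantifications.

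Transcripts of Myo18a and Myo10 start at several annotated sites. The products of Myo18a differ in an N-terminal PDZ domain, and a product of Myo10 without the motor domain is known from brain. Transcripts starting at positions 77801298 to 77801375 of chromosome 11, inside the gene, took 60.98% and 62.20% of Myo18a TPM in the 2 animals, with a mean of 59.1% from the second quantification. Those starting upstream at 77777265 to 77777316 took 0.10% and 0.18% (3.90% from the second quantification), and those at 77763246 to 77763301 took 5.24% and 5.78% (6.41%). A further 26.31% and 27.94% came from Myo18a-215, whose start is marked as not found. The leading internal transcript, Myo18a-217, is 1076 bases long with 307 annotated codons, and its end is marked as not found. The long internal transcript Myo18a-224, with 1722 codons, took 19.0 ± 0.6%. In Myo10, the upstream start at 25622525 to 25622549 of chromosome 15 took 40.30% and 38.09%, led by Myo10-202 with 2062 codons. The internal start at 25752910 to 25752979 took 33.07% and 31.63%, led by Myo10-201 with 1316 codons. A site farther inside at 25773987, that of Myo10-204, took 24.50% and 26.15%. The end of Myo10-204 is marked as not found. It held 109 and 147 of the 2574 and 3064 expected counts of Myo10, which are not corrected for length. Shares are estimates from reads along the whole transcripts, since no assay of start sites is part of these data.

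RefSeq windows (GRCm38.p6, 250 bases before to 50 after the RefSeq start, plus strand) are shown because the start carries the difference between the forms. They are those near the Myo18a starts at 77777265 (upstream) and 77801298 (internal) and the upstream Myo10 start. A window near the internal Myo10 start is not shown, so the forms of Myo10 are not compared here. The upstream Myo18a start at 77777265 took only 0.10% and 0.18% of Myo18a TPM. The one at 77763246, with 5.24% and 5.78%, had no RefSeq window near it. RefSeq windows were matched for 65 of the 84 motor genes, and the RefSeq start lies near but not always at the first annotated transcript start. Capitals mark the E-box CANNTG, searched on both strands. It was found in 72.3% of all 32851 promoter windows.
Myo18a upstream, chr11:77776985-77777284: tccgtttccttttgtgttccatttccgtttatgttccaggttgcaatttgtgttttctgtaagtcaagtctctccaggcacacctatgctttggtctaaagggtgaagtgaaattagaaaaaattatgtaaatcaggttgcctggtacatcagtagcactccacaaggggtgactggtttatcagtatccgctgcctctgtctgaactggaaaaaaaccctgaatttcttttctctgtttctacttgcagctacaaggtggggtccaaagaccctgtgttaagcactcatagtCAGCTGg
Myo18a internal, chr11:77801048-77801347: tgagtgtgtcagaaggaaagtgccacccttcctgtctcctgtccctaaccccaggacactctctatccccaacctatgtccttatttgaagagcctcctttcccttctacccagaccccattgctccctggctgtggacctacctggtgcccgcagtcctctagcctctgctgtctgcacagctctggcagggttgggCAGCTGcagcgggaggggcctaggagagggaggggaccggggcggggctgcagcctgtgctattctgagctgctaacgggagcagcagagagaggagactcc
Myo10 upstream, chr15:25622300-25622599: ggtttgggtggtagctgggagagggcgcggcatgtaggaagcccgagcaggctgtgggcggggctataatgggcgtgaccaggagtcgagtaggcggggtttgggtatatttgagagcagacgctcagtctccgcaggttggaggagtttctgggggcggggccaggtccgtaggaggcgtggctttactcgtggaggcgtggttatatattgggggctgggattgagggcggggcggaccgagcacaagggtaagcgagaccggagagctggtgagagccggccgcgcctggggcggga
The windows differed in base content. The GC content was 43.0% upstream and 60.7% at the internal start of Myo18a, and 64.7% upstream of Myo10, beside a median of 52.7% over all windows. The upstream window of Myo10 held 23 CpG dinucleotides and 5 copies of the GC box GGGCGG, against a median of 7 CpG and a GC box in 35.7% of windows. It held no E-box. Each Myo18a window held 1 E-box. In the upstream window it lay after the RefSeq start, at position 43, and in the internal window before it, at position -52. The internal window of Myo18a also held 1 GC box. Matches are descriptions of these letters and not of binding.

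Between the 2 animals, 4 motor genes of low level differed by more than 2-fold. Rounded counts, scaled by TMM, were compared by an exact binomial test with Benjamini-Hochberg adjustment over the 14754 genes that had at least 20 counts in sum, which compares these libraries and not conditions. Of 65 motor genes tested, 4 passed an adjusted p of 0.05 with a ratio over 2-fold, or 6.15%, beside 1.75% of all genes tested. The highest mean level among these 4 was 1.11 TPM. Where the libraries together held at least 100 counts for a gene, 1 of 43 motor genes passed (2.33%), beside 0.776% of the nuclear protein-coding genes.

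Kif1a had 40 counts in animal 1 and 138 in animal 2, a log2 ratio of 1.59 (exact binomial test, adjusted p = 1.06e-09). Its TPM was 0.45 and 0.59, and the log2 ratio of TPM was 0.39. Myo5b, a motor of recycling endosomes, had 19 and 52 counts, a log2 ratio of 1.24 (adjusted p = 0.00858), with 0.60 and 0.72 TPM. Myo16, a myosin studied in brain, had 23 and 61 counts, a log2 ratio of 1.20 (adjusted p = 0.00464), with 0.23 and 0.48 TPM. Dynlt1c went the other way, with 38.62 and 10.79 expected counts and a log2 ratio of -1.97 (adjusted p = 0.000208). In the second quantification the log2 ratio of Dynlt1c was -0.01, and in the reference the gene shares its whole coding sequence with Dynlt1a and Dynlt1f. Transcripts annotated as retaining an intron held 87.9% of Dynlt1c TPM as a mean, and 44.9% in the second quantification. With the 2-fold threshold set on TPM in place of scaled counts, Myo16 alone of the 4 passed, beside 1.55% of all genes tested. Beside these ratios, all 9 Schwann cell markers had higher scaled counts in animal 2, from a summed TPM of 57.83 to 117.54, and 4 were called, Prx, Mal and Ncmap among them. The 10 neuron markers summed to 1.45 and 1.93 TPM, with the highest, Stmn2, at 0.67 and 1.22 (log2 ratio of scaled counts 0.77, adjusted p = 0.0522 by the exact binomial test), Prph at 0.44 and 0.55 and the others at 0.16 or less. Other marker lists differed too, by adjusted p under 0.05. Smooth muscle and pericyte markers were higher in animal 2 in 5 of 6 (3 by adjusted p) and endothelial markers in 4 of 6 (2). Fibroblast markers were lower in all 6 (4 by adjusted p), and of 9 muscle fibre markers 4 were higher and 5 lower. The part of any of these marker lists in the ratios of Kif1a, Myo5b and Myo16 was not tested.

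By adjusted p alone, 14 motor genes differed, or 21.5%, beside 14.8% of all genes tested, 10 higher in animal 2 (15.4% beside 7.96%) and 4 lower (6.15% beside 6.87%). These included abundant motors with small ratios. Kif1b had 20203 and 25889 counts, a log2 ratio of 0.17 (adjusted p = 2.70e-35, exact binomial test), Kif5b 5876 and 7375 (0.14), and Kif21a 675 and 1069 (0.48). Dynll1 had 438 and 652 counts (0.39) and Dynlrb1 699 and 662 (-0.26), the largest ratios of either direction among motor genes with mean TPM of 5 or more. Myo19 (0.80), Myo1c (0.13) and Kif16b (0.16) were also higher, and Myo5c (-0.55) and Myo7a (-0.49) lower. Kif1c, Myo18b and Myo18a had ratios of 0.01, -0.02 and 0.01 and did not pass. For genes with at least 1000 counts over both libraries the share was 7 of 25 (28.0%), beside 28.1% of nuclear protein-coding genes. The median log2 ratio of the tested motor genes was 0.02, beside 0.01 for all genes tested.

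**Figure D4:**
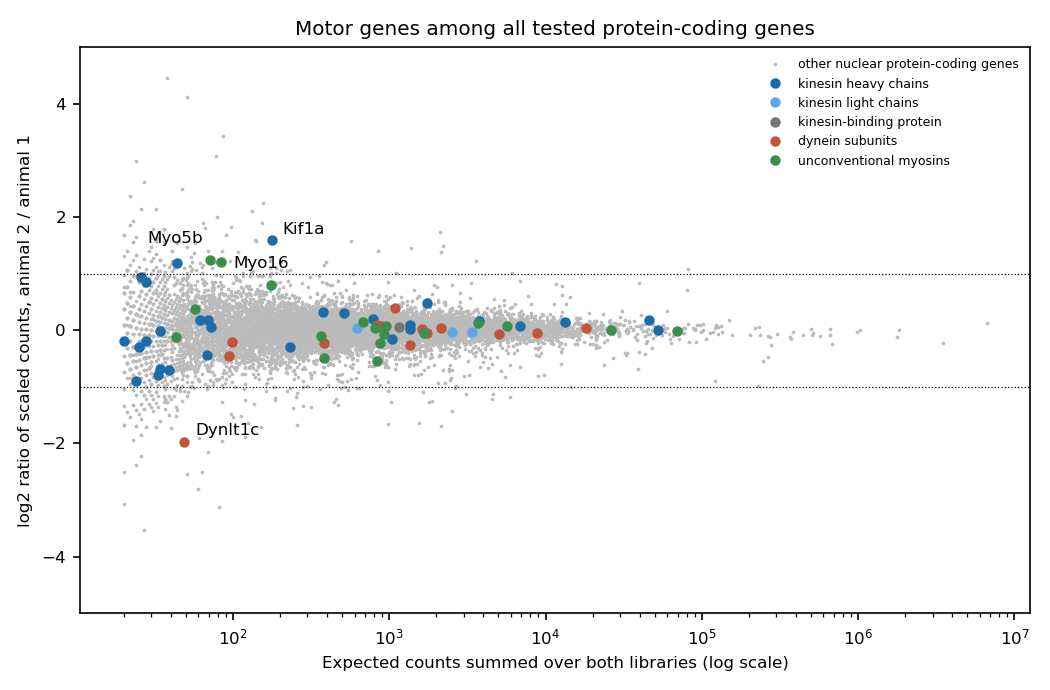
log2 ratio of scaled counts, animal 2 over animal 1 (y axis), against the expected counts summed over both libraries (x axis, log scale) for motor genes (coloured by class) and other tested nuclear protein-coding genes (grey). Dotted lines mark 2-fold and 15 points lie outside the plotted range. Kif1a, Myo5b, Myo16 and Dynlt1c are named, all at low counts, and the motor genes with many counts lie near 0.

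The levels of a motor gene also depended on how reads were assigned. Of 29 motor genes at mean TPM of 5 or more in either quantification, the second gave a median of 1.37 times the TPM of the first, beside 1.44 for 7143 nuclear protein-coding genes. Only Kif5b was over 2-fold apart, at 41.2 TPM in the first and 88.1 in the second, 2.14 times as much, beside 646 of the 7143. Dync1li2 was the lowest at 0.747 times. Among low genes, Kif24 had 0.145 TPM in the first and 2.66 in the second, and Kif2c 0.115 and 0.878. These last genes were chosen after their values were seen. Of the motor genes, 34 were under the threshold in both animals and both quantifications.

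**Figure D5:**
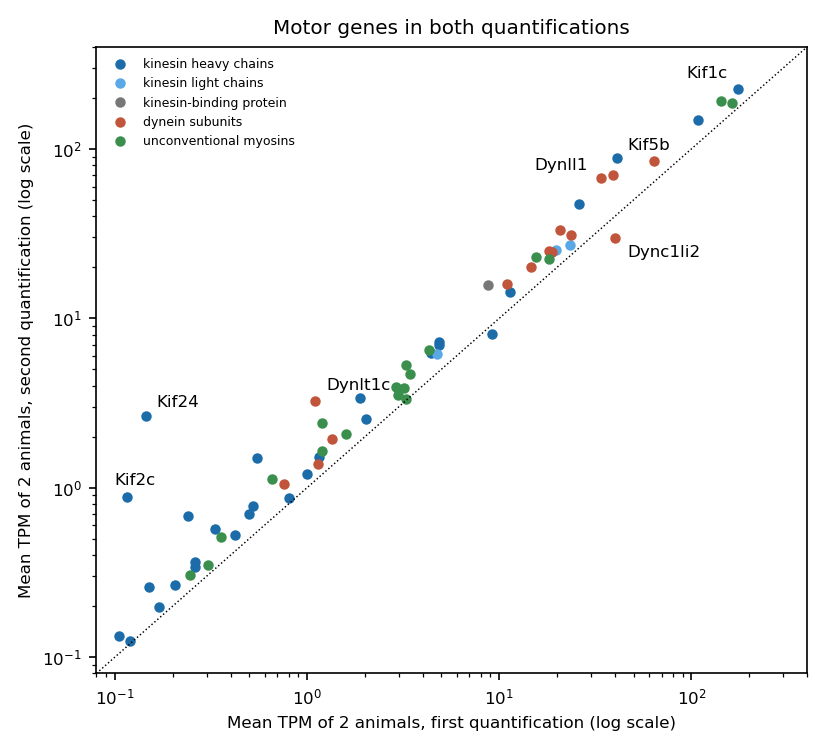
Mean TPM of 2 animals in the second quantification against the first (both axes log scale) for the 65 motor genes at 0.1 or more in both, coloured by class, with equality as a dotted line. Most points lie a little above the line, Kif24 and Kif2c far above it and Dync1li2 below it.

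The partners and tracks of these motors were read from 11 lists of other genes, in none of which a gene passed both the adjusted p and the 2-fold threshold between the animals. All 12 dynactin genes, encoding the complex that activates dynein, were detected, with a median of 26.5 TPM. The capping protein subunits Capzb (172.24 in animal 1 and 195.43 in animal 2) and Capza2 (120.05 and 112.12), which serve other actin structures too, were the highest, and Dctn1, the large subunit that binds dynein, had 49.94 and 49.29. Of 15 regulators and adaptors of dynein, 9 were detected with a list median of 8.13 TPM. Pafah1b1, the LIS1 protein that holds dynein ready, had 37.53 and 39.55, and the adaptor Hook3 28.13 and 29.85. The adaptors Bicd1 and Hook2 had mean levels of 0.19 and 0.50.

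Of 21 kinesin adaptor genes, 16 were detected (median 7.15 TPM). Trak1, which couples kinesin-1 to mitochondria, had 65.35 TPM in animal 1 and 75.38 in animal 2, Map7d1, which recruits kinesin-1 to microtubules, 63.63 and 73.05, and Arl8b, which acts on lysosomes, 32.01 and 34.82. Trak2 had 21.94 and 34.35, a log2 ratio of scaled counts of 0.46. The nuclear envelope proteins Sun2 and Syne1 had 27.53 and 29.92, and 18.61 and 21.31. Among 15 partners of unconventional myosins, 12 were detected. Unc45b, the chaperone of muscle myosin, had 53.87 and 63.78. Mlph, the adaptor of Myo5a on melanosomes, had 0.05 and 0.10, and the 4 melanocyte markers summed to 0.17 and 0.33.

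For the other myosins, 9 of 10 sarcomeric heavy chain genes were detected, led by Myh4 of the fastest fibres at 10347 and 9464 TPM. All 4 class II genes of non-muscle and smooth muscle cells were detected, led by Myh9 at 17.67 and 19.94, which is below Myo18b and Myo18a and near Myo10. Of 13 tubulin genes, 10 were detected, with Tuba4a highest at 231.72 and 292.96 and the neuronal Tubb3 at 0.04 and 0.02. Of 15 genes for microtubule-binding and centrosomal proteins, 14 were detected, with Map4 highest at 164.60 and 173.54. Of 5 further kinesin genes and partners, only Kifap3 and Kifc3 (3.47 and 3.04) were detected, and Cenpe, the kinetochore kinesin, had 0.19 and 0.13.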

How the data were processed

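Total RNA-seq of the gastrocnemius of 2 animals, 1 library each, was analysed as 1 group. The members and lists were chosen with earlier results of these data known. Expected counts and TPM per gene, with each transcript's percent of its gene, were computed by the authors and carry the columns RSEM writes, per the file headers. The bounds of the deposited TPM intervals, a signal-like quantity per the file headers, were not used for any printed value. The second quantification, whose estimated counts and TPM per transcript bear kallisto's column names, per the file headers, was summed to genes. The files name mm10 and GENCODE M21. Versions of the tools and the strand setting: not given in the sources used here. All entries, abundant small RNAs included, enter the deposited TPM. Overlapping, antisense and near-identical genes may share reads.

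Detection required a TPM of at least 1 in each library. Expected counts were rounded and scaled by TMM (edgeR 4.0.16, R 4.3.3). Genes with at least 20 counts in sum were compared by a two-sided exact binomial test, conditional on the sum (prior count 0.5 for ratios, Benjamini-Hochberg over all genes). It was run on simulated libraries that held sampling error alone. Such a run cannot show how the test behaves with variation between animals. The error of the test is that of sampling alone, and reads lacking molecular identifiers do not stand for separate molecules. With 1 library per animal and 1 group, no replicated model could be fitted. Genes were named by a rule: the 5 highest of each class, all pair members, the highest of each role, genes called between the animals or largest in ratio at mean TPM of 5 or more (up to 6), 3 on each side of the threshold, genes over 2-fold apart between quantifications, and the highest of each list. Alternatives were the second quantification, each animal alone, TPM rescaled to nuclear protein-coding genes, thresholds of 0.5 and 2, pseudocounts of 0.1 and 1, and other scalings, filters and call rules. List symbols Kifbp, Pleckm2, Dnai1 and Dnai2 were not matched. Smooth muscle, endothelial and fibroblast markers (6 of 6 each), erythroid markers (3 of 4) and multiciliated markers (0 of 5) were also read. A few genes are not reported here.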

Additional observations from a re-analysis of the deposited data

How the results depend on the processing

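The count of detected motor genes (39) ranged from 34 to 48 over the second quantification (46), rescaled TPM (48) and thresholds of 0.5 (47) and 2 (34), and from 41 to 42 with 1 animal left out. Their median, 0.99 TPM, was 1.76 in the second quantification, 2.49 after rescaling and 8.93 over genes with mean TPM of 1 or more, and 0.94 to 1.04 with 1 animal left out. The 4 calls between the animals remained under RLE size factors and without a filter on low counts. Library totals added Kif19a, moved the median log2 ratio of all genes to 0.11 and gave 5 calls. The second quantification gave 3, without Dynlt1c, adjusted p alone gave 14, and a 2-fold threshold on TPM left 1, Myo16. Leaving out an animal leaves no comparison between animals and no agreement of leading transcripts. In the second quantification the class shares were 37.7% for kinesin heavy chains, 30.5% for myosins, 26.9% for dynein subunits, 3.87% for light chains and 1.03% for Kif1bp. With 1 animal left out they were 34.9% to 36.4%, 33.1% to 33.4%, 25.5% to 26.5%, 4.20% to 4.45% and 0.759% to 0.815%. The log2 ratio of Myo18b over Myo18a (0.18) turned to -0.0216 in the second quantification, and that of Myo9a over Myo9b (-0.04) to 0.20. With 1 animal left out the ratio of Myo9a over Myo9b ran from -0.223 to 0.144, and that of Myo5a over Myo5c from -0.00869 to 0.311. The cause was not tested. The number of pairs whose first-named gene was higher was 17 to 18 in all settings, and that of companion genes detected 92 to 95 of 127. Of the log2 ratios of single pairs under the other settings, 84 stayed within the SD of the 2 animals. A further 37 moved beyond it and 4 turned in sign. No paired analysis was possible because the series has 1 group. Depth limits genes under 20 summed counts, whose ratios rest on few reads.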
